A study of Homo sapiens with 6 samples.

Results

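The Sprouty and Spred genes encode intracellular inhibitors of signalling from receptor tyrosine kinases to the MAP kinase ERK. The family has 7 genes here, 4 Sprouty genes (SPRY1, SPRY2, SPRY3 and SPRY4) and 3 Spred genes (SPRED1, SPRED2 and SPRED3). They were taken by symbol from the 33616 genes measured on each array, and all 7 members had a row of their own. The RNA came from H295R, 1 established line grown from a human carcinoma of the adrenal cortex and used as a model of steroid production. Of 6 arrays, 3 held RNA of cells given 5 µM CX-4945 for 24 h and 3 held RNA of cells given its solvent DMSO for 24 h. CX-4945, also called silmitasertib, is an inhibitor of CK2, a protein kinase, and acts on the CLK kinases of splicing factors as well. The labels do not state whether replicates came from separate cultures, so the p-values reflect how far these samples spread and no more, and that spread may be technical.

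Growth factor receptors pass their signal through RAS, RAF and MEK to ERK. Sprouty proteins, first found in Drosophila as brakes on branching of the airways, share a cysteine-rich C-terminal domain and act between the receptor and RAF. Spred proteins carry that domain together with an N-terminal EVH1 domain, which binds neurofibromin, the product of NF1, and brings it to the membrane, where it switches RAS off. Transcription of several of these genes is itself raised by ERK signalling, so that the family forms a negative feedback loop. Loss-of-function mutations of SPRED1 cause Legius syndrome, a condition that resembles neurofibromatosis.

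With CX-4945, 5 of the 7 genes were higher, 1 was lower and 1 was not called. SPRY4 was 17.5-fold higher as measured and at least 15.7-fold higher against background. SPRED2 was 9.35-fold higher, SPRY2 4.81-fold and SPRED1 1.70-fold. SPRED3 was 5.20-fold higher as measured, but from a DMSO level below background, which leaves a bound of at least 1.24-fold. SPRY3 was 1.78-fold lower, and SPRY1 lay below background in both groups. In bulk RNA, fewer cells with a transcript and less of it per cell cannot be told apart. Calls were made with limma over all genes at a Benjamini-Hochberg adjusted p of 0.05. Over all 33616 genes 10.3% were called higher and 12.5% lower, together 22.8%. These are 3469 and 4196 genes, and with equal array medians 2539 were called higher and 5291 lower, while the same 6 members kept their calls and directions. The median log2 difference was 2.27 over the 7 members as measured and 0.02 over all genes, and with SPRY4 and SPRED3 at their bounds the median of the members was 0.76. In 5 members all 3 CX-4945 arrays lay above all 3 DMSO arrays, as they did in 17.6% of all genes. In 1 member, SPRY3, all 3 lay below, as they did in 18.4% of all genes, and in either direction the groups did not overlap in 36% of all genes. Called and at least 2-fold higher were 4 members as measured, beside 4.34% of all genes as measured, and 3 members (SPRY4, SPRED2 and SPRY2) with SPRED3 at its bound. An exact two-sided permutation test of the 6 values of a gene cannot go below p = 0.1 with 3 against 3 arrays, and 6 members reached that value, whereas SPRY1 gave 0.8.

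The promoters of 5 members are shown because these genes carry the differences: SPRY4, SPRED2, SPRY2 and SPRED3 as the 4 with the highest log2 differences as measured and SPRY3 as the member that fell. Sequences are from RefSeq (GRCh38.p14), from 250 bases before to 50 after a transcription start, and run 5′ to 3′ on the strand of the gene. Capitals mark every match, on either strand, to letters bound by factors that respond to ERK and to stress: CCGGAA (ETS factors), TGANTCA (AP-1), TGACG (core of the site of CREB and ATF), GCGNGGGCG (EGR), and TGAATGAA or TGAATGGA (CIC, a repressor that ERK signalling relieves). These letters were chosen after the sequences had been seen, and no 2 matches in these windows overlap.
SPRY4 promoter, chr5:142324198-142324497, minus strand: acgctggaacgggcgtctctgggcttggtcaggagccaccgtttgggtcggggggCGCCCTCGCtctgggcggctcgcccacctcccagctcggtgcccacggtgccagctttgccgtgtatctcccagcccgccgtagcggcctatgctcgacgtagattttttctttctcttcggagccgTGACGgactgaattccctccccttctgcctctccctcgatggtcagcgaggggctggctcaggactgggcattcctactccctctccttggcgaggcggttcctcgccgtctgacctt
SPRED2 promoter, chr2:65432550-65432849, minus strand: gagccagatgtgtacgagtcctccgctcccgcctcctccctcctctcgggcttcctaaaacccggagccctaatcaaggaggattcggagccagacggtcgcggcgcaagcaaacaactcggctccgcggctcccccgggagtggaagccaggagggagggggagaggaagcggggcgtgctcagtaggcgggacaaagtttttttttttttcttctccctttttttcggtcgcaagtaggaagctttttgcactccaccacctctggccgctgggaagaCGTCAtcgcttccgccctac
SPRY2 promoter, chr13:80341077-80341376, minus strand: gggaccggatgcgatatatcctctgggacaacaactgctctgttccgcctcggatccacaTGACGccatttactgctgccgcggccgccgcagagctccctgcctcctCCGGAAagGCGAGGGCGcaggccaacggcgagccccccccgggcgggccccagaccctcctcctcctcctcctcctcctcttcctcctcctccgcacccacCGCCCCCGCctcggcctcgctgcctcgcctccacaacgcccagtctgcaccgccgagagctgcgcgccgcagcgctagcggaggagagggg
SPRED3 promoter, chr19:38389541-38389840, plus strand: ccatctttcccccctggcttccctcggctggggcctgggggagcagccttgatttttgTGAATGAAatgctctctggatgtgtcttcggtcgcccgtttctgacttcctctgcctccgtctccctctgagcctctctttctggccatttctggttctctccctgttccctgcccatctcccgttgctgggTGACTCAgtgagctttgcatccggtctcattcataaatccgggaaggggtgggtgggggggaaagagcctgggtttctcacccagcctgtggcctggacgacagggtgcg
SPRY3 promoter, chrX:155612336-155612635, plus strand: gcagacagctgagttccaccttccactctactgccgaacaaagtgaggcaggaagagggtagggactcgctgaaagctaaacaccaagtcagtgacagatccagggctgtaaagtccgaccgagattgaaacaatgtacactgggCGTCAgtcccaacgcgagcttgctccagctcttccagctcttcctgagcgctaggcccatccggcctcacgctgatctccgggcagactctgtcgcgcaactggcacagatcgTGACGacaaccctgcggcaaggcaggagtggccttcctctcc

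All 7 members had at least 1 such window in the RefSeq table, 16 in all, since several genes have more than 1 start. The 16 include windows of both the X and the Y copy of SPRY3. A Y window among them has the same sequence as an X window, without a match, so that region is counted on both chromosomes. For SPRED3 the window with matches is shown, and the window at its other start held none. SPRY2 has 3 windows, and those not shown held none. All windows shown held a match, which several of the 16 did not. SPRED2 has another window, not shown, with a pair of TGANTCA matches. TGACG was found in 4 of the 16 member windows, those of SPRY4, SPRED2, SPRY2 and SPRY3 shown above, and in 24.6% of the 35116 windows of all genes, so that it stands both in members that rose and in the one that fell. EGR matches were found in 3 of 16, in SPRY4, SPRY2 and a window of SPRY1, which was not called, and in 9.43% of all windows. CCGGAA was found in 2 of 16, in SPRY2 and the same window of SPRY1, in both upstream of an EGR match, and in 17.2% of all windows. TGANTCA was found in 3 of 16, in SPRED3, the other SPRED2 window and a window of the Y copy of SPRY3, and in 7.71% of all windows. TGAATGAA was found in 1 of 16, in SPRED3, and in 1.65% of all windows. TGAATGGA was found in 0 of the 16 member windows and in 1.03% of all windows. The only window of SPRED1 held none of these letters. A match is a description of the letters, not a binding site.

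Among the Sprouty genes, SPRY4 had the highest log2 difference. Its product inhibits receptor tyrosine kinase signalling upstream of RAF. The intensities of SPRY4 were 925, 2018 and 1287 on the CX-4945 arrays, against 60.1, 85.3 and 87.7 on the DMSO arrays. The groups did not overlap, and treated replicate 2 was the highest. The log2 difference was 4.13 ± 0.28 (SE, 95% interval 3.52 to 4.73; limma adjusted p = 5.14e-07), rank 22 from the top among 33616 genes. The background level is a log2 intensity of 6.38, under which the means of 95% of 400 olfactory receptor genes lie. The treated mean of SPRY4 was 10.4 ± 0.56 and its DMSO mean, 6.26 ± 0.30, lay below that level (SD, n = 3 each), although 2 of the 3 DMSO arrays were just above it. With the dimmer DMSO array raised to the background level, the rise was at least 15.7-fold.

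SPRY2, the Sprouty gene whose product is known to bind the ubiquitin ligase CBL and the adaptor GRB2, had intensities of 665, 791 and 717 on the CX-4945 arrays. On the DMSO arrays it had 135, 113 and 221. The groups did not overlap, and DMSO replicate 3 was the highest of its group. The log2 difference was 2.27 ± 0.25 (SE, 95% interval 1.73 to 2.80; limma adjusted p = 2.53e-05). Both group means, 9.50 ± 0.13 and 7.23 ± 0.50 on the log2 scale (SD, n = 3 each, CX-4945 and DMSO), lay above background. The 95% intervals of SPRY2 and SPRY4 did not overlap; the difference between these genes was not tested.

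SPRY3 went the other way. It lies in the pseudoautosomal region shared by the X and Y chromosomes, and the array has 2 rows of that name, whose values were equal on all 6 arrays and were counted once. Its intensities were 2657, 1631 and 2380 on the CX-4945 arrays, against 3708, 4303 and 3664 on the DMSO arrays. All treated values were lower, and treated replicate 2 was the lowest. The log2 difference was -0.83 ± 0.20 (SE, 95% interval -1.26 to -0.40; limma adjusted p = 0.00792). Without DMSO replicate 2 the call was lost (adjusted p = 0.0503), and without CX-4945 replicate 2 the log2 difference was -0.63.

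SPRY1, whose product is known in mice to restrain RET signalling in the developing kidney, showed no difference that could be measured here. Its intensities were 38.8, 48.3 and 44.3 on the CX-4945 arrays, against 48.7, 58.4 and 34.0 on the DMSO arrays. The groups overlapped, and both means lay below the background level. The log2 difference was -0.07 ± 0.23 (SE, 95% interval -0.57 to 0.42; limma adjusted p = 0.875), so that only a bound on the level of SPRY1 can be given in either group.

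**Figure D1:**
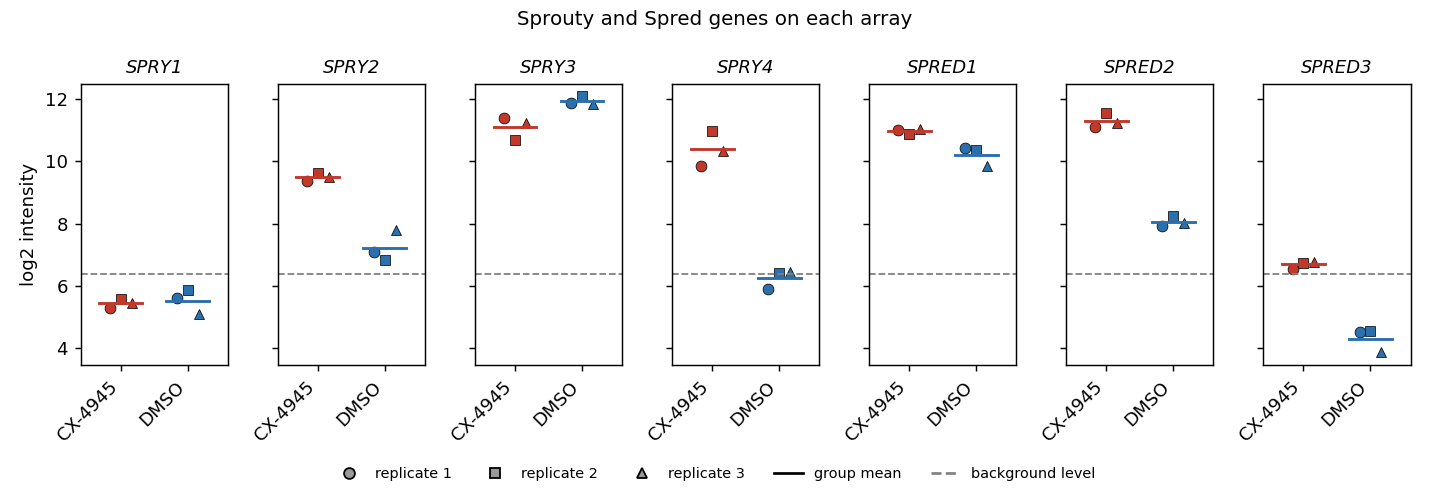
Log2 intensity of the 7 Sprouty and Spred genes on each array, with the 3 CX-4945 arrays in red on the left and the 3 DMSO arrays in blue on the right of each panel; symbols stand for replicates, short lines for group means and the dashed line for the background level of 6.38. SPRY2, SPRY4, SPRED1, SPRED2 and SPRED3 lie higher on all 3 CX-4945 arrays, SPRY3 lies lower, and SPRY1 stays below the dashed line.

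Among the Spred genes, SPRED2, whose product dampens RAS activity as SPRED1 does, had the highest log2 difference. Its intensities were 2191, 2996 and 2369 on the CX-4945 arrays, against 243, 302 and 260.0 on the DMSO arrays. Every treated value lay far above every DMSO value, and replicate 2 was the highest in each group. The log2 difference was 3.22 ± 0.19 (SE, 95% interval 2.81 to 3.64; limma adjusted p = 1.82e-07), rank 67 from the top. SPRED2 was above background in both groups, with means of 11.3 ± 0.24 in CX-4945 and 8.06 ± 0.16 in DMSO on the log2 scale (SD, n = 3 each).

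SPRED3, the Spred whose product lacks a working KIT-binding domain, was dim. Its intensities were 94.2, 107 and 110.1 on the CX-4945 arrays, against 22.8, 23.5 and 14.6 on the DMSO arrays. The groups did not overlap. The log2 difference as measured was 2.38 ± 0.22 (SE, 95% interval 1.89 to 2.86; limma adjusted p = 7.31e-06). The DMSO mean of 4.31 ± 0.38 lay below background and the treated mean of 6.69 ± 0.12 just above it (SD, n = 3 each), so the rise was at least 1.24-fold when set against the background level.

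SPRED1, the Legius syndrome gene, had intensities of 2038, 1868 and 2089 on the CX-4945 arrays, against 1376, 1296 and 911 on the DMSO arrays. The groups did not overlap, and DMSO replicate 3 was the lowest of its group. The log2 difference was 0.76 ± 0.19 (SE, 95% interval 0.34 to 1.18; limma adjusted p = 0.0117). Without DMSO replicate 3 it was 0.58 and the call was lost (adjusted p = 0.0684). The interval of SPRED1 did not overlap that of SPRED2; the difference between these genes was not tested. With SPRED3 known only by a bound, its rise and that of SPRED1 have no order.

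**Figure D2:**
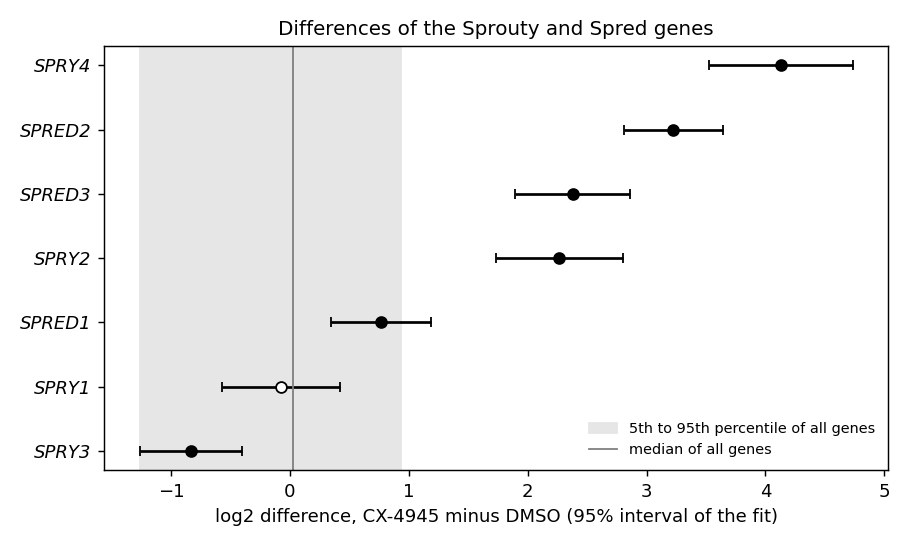
Log2 difference, CX-4945 minus DMSO, of each Sprouty and Spred gene with the 95% interval of the fit; filled circles passed the test and the open circle did not, and the grey band spans the 5th to the 95th percentile of all genes, -1.26 to 0.94. SPRY4, SPRED2, SPRED3 and SPRY2 lie above the band as measured (SPRED3 from a DMSO level below background), and SPRED1, SPRY1 and SPRY3 lie inside it.

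The treated arrays differed among themselves for some members. CX-4945 replicate 2 correlated with the other treated arrays at r = 0.988 and 0.990 across genes, which are not independent replicates, whereas replicates 1 and 3 correlated at 0.994. That array had the highest treated value of SPRY4, SPRED2 and SPRY2 and the lowest of SPRY3 and SPRED1. Relative to the mean of the DMSO arrays, SPRY4 was higher by 3.59, 4.72 and 4.07 on the log2 scale on CX-4945 replicates 1, 2 and 3. SPRED2 was higher by 3.04, 3.49 and 3.15 on these arrays, and SPRED3 by 2.24, 2.42 and 2.47. Without replicate 2, SPRY4 gave a log2 difference of 3.83 and SPRED2 of 3.09, and 6 members were still called.

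The 7 genes lie on 7 chromosomes, so none of them is a neighbour of another. SPRY4-IT1, a noncoding RNA gene inside SPRY4, has a row of its own. Its intensities were 820, 1125 and 1159 on the CX-4945 arrays, against 92.0, 142 and 122 on the DMSO arrays. Its groups did not overlap, and its log2 difference was 3.13 ± 0.23 (SE; limma adjusted p = 9.00e-07). The row may also take signal from RNA of SPRY4, and whether it does was not tested. TMLHE, an enzyme gene of carnitine synthesis, starts on the opposite strand and overlaps SPRY3 in the RefSeq annotation (GRCh38.p14). TMLHE had 1540, 1113 and 1446 on the CX-4945 arrays, against 3591, 3909 and 3708 on the DMSO arrays, a log2 difference of -1.46 ± 0.17 (SE; limma adjusted p = 5.26e-05). Both genes of this pair were thus lower on all 3 CX-4945 arrays. Of the nearest genes that do not overlap a member, 5 were measured. These were TMLHE-AS1 and AMD1P2 beside SPRY3, FAM98B beside SPRED1, and GGN and FAM98C beside SPRED3. AMD1P2, GGN and FAM98C lay below background in both groups, where no change could be seen. None of the 5 passed the limma test, with log2 differences from -0.04 to 0.38 (adjusted p from 0.269 to 0.994).

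Other genes of the pathway are given by their counts, to be read beside 10.3% higher and 12.5% lower among all genes. The lists were written with earlier results of these data known. Of 27 receptor tyrosine kinase genes, 3 were higher and 3 lower, and 13 were above background in at least 1 group. EGFR, the epidermal growth factor receptor, had 8259, 6451 and 8318 on the CX-4945 arrays and 320, 229 and 237 on the DMSO arrays. All treated values were far higher, and the rise was 29.4-fold (log2 difference 4.88 ± 0.19 SE; limma adjusted p = 1.05e-08). FLT1, a receptor for vascular endothelial growth factor, rose at least 2.68-fold from a DMSO level below background, and the neuregulin receptor ERBB3 rose 3.27-fold. MET, the hepatocyte growth factor receptor, fell 2.21-fold.

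Of 30 genes of the FGF and EGF families, 2 were higher and 5 lower, and 11 were above background in at least 1 group. NRG4, a ligand of ERBB4, had 629, 445 and 746 on the CX-4945 arrays and 4231, 4562 and 4779 on the DMSO arrays, and fell 7.62-fold (log2 difference -2.93 ± 0.20 SE). Above background in both groups, HBEGF rose 2.23-fold (limma adjusted p = 0.00201) and FGF9 fell 2.16-fold (0.000361). EPGN (log2 difference 1.39) and FGF11 (-1.29) lay below background in both groups, and NRG2 (-1.21) did so in CX-4945, at least 2.02-fold lower. Without moderation of the variance EPGN (adjusted p = 0.0856), FGF11 (0.0572) and NRG2 (0.130) lost their calls. Of 26 adaptors, exchange factors and GTPase-activating proteins of RAS, 4 were higher and 1 lower. The adaptor gene SHC4 rose at least 6.05-fold from below background, RASAL2, which helps RAS hydrolyse GTP, 2.31-fold and GAB3 1.82-fold. GAB1, a docking protein that carries the signal of several receptors, fell 3.40-fold.

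Of 18 measured genes of the RAS, RAF, MEK and ERK step and its scaffolds, 2 were higher and 6 lower. MKNK2, a kinase that ERK activates, rose 3.36-fold. The scaffold genes KSR1 and KSR2 fell 3.28-fold and 3.67-fold, KSR1 on its brightest row, with a log2 difference of -1.71 there and of -1.06 for the mean of its rows (adjusted p = 0.00636). RPS6KA1, which encodes a kinase downstream of ERK, fell at least 2.86-fold, to below background, on its brighter row, but the mean of its rows gave a log2 difference of -0.37 (adjusted p = 0.18).

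Of 13 measured genes whose products bind or modify Sprouty or Spred proteins, 1 was higher and 3 lower. SIAH2, a ubiquitin ligase known to degrade Sprouty proteins, had 10842, 14667 and 11727 on the CX-4945 arrays and 48531, 61962 and 49685 on the DMSO arrays. Its groups did not overlap, and it fell 4.31-fold (log2 difference -2.11 ± 0.15 SE; limma adjusted p = 9.00e-07). CAV1, the membrane scaffold caveolin, fell 2.17-fold and MKNK1, a kinase known to phosphorylate SPRY2, 1.97-fold, a call lost without moderation of the variance (adjusted p = 0.0884). NEDD4, a ubiquitin ligase of SPRY2, rose 1.91-fold, a call lost without moderation (adjusted p = 0.108), without CX-4945 replicate 3 (0.0551) and without DMSO replicate 3 (0.0605). NF1, the partner of the Spred proteins, was not called (log2 difference -0.39; adjusted p = 0.183), nor were CBL (0.20; 0.467) and GRB2 (0.25; 0.361).

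Of 25 genes listed as other regulators of receptor tyrosine kinase and MAP kinase signalling, 5 were higher and 5 lower. The list was broad, and whether each gene acts as a feedback inhibitor of ERK signalling was not tested. Called lower were LRIG3, PEBP1, DUSP10, DUSP16 and FLRT3. Of those lower, DUSP10 and FLRT3 lay below background in both groups. With only genes above the olfactory receptor level tested, 5 were higher and 3 lower. DUSP4, a phosphatase that removes phosphate from ERK, had 1481, 2457 and 1801 on the CX-4945 arrays and 188, 143 and 224 on the DMSO arrays, a rise of 10.3-fold. The related phosphatase genes DUSP5 and DUSP6 rose 8.47-fold and 2.61-fold, while LRIG3, of the family of LRIG1, fell 2.59-fold. Among 26 genes that ERK signalling is known to switch on, 13 were higher and 1 lower, or 53.8% called beside 22.8% of all genes. Their median log2 difference was 0.70 as measured and 0.58 with 6 genes at their bounds. Above background in at least 1 group were 18 of the 26, beside 17405 of all 33616 genes. With only genes brighter than the median of gene means tested, 7408 genes were called, and 10 of these targets were higher. The part of brightness in the gap between 53.8% and 22.8% was not tested. The transcription factor genes EGR1 and JUN rose 37.0-fold and 16.6-fold. The cyclin gene CCND1 and the immediate early gene IER2 rose at least 2.59-fold and at least 5.58-fold, both from below background.

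Of 13 ETS and related factors that act on such promoters, 3 were higher and 1 lower. ETS2 rose 3.91-fold, with 671, 686 and 652 on the CX-4945 arrays and 159, 179 and 175 on the DMSO arrays. ELK4 rose 1.65-fold and ETV3 1.47-fold, but ETV3 lost its call in 5 of 17 alternatives, among them quantile normalization (adjusted p = 0.0524) and equal array medians (0.0895). CIC had 130.1, 135 and 148 on the CX-4945 arrays and 204, 257 and 224 on the DMSO arrays. It fell 1.65-fold (log2 difference -0.72 ± 0.19 SE; limma adjusted p = 0.0167), a call lost without DMSO replicate 2 (0.0784) and without DMSO replicate 3 (0.0531). Of 6 miRNA genes known to target Sprouty or Spred mRNAs and their hosts, 3 were measured (MIR126, MIR27A and EGFL7). MIR21, MIR27B and VMP1 were not. None of those measured passed the limma test (adjusted p from 0.417 to 0.617). MIR126 and MIR27A lay below background in both groups, where no change could be seen, so this result covers only the host gene EGFL7.

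**Figure D3:**
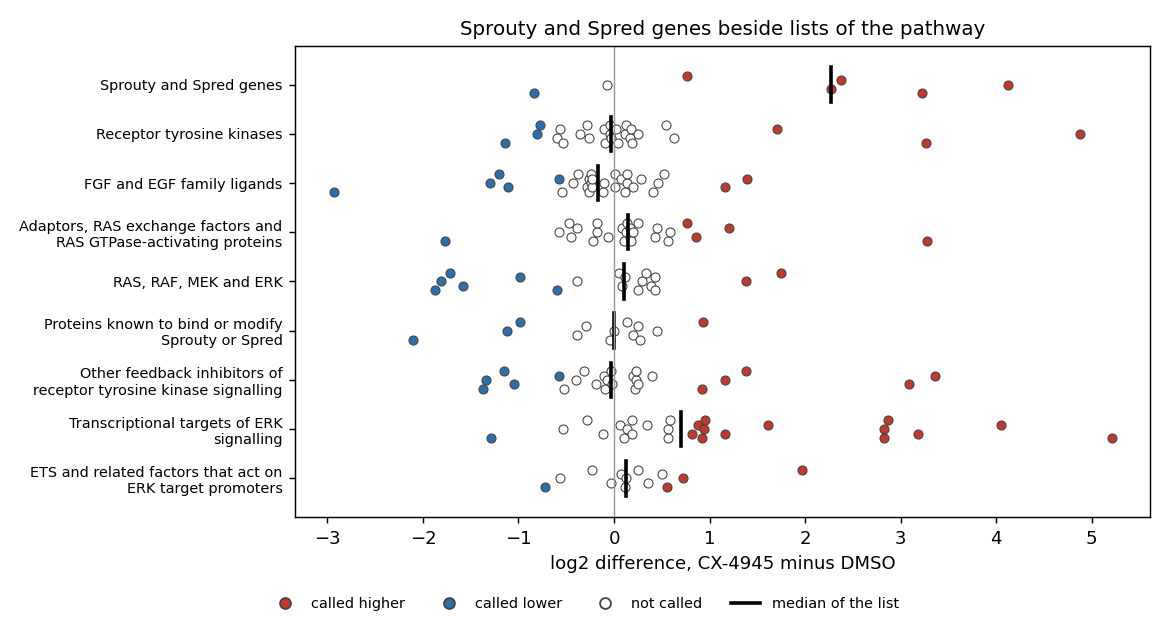
Log2 difference, CX-4945 minus DMSO, of each measured gene of the Sprouty and Spred family and of 8 lists of the pathway; red and blue circles were called higher and lower, open circles were not called, and vertical bars are list medians. As measured, the family has the highest median, 2.27 (0.76 with genes at their bounds), followed by the targets of ERK signalling at 0.70 (0.58). Most genes of the other lists are open circles near 0, part of them genes below background. Above background in at least 1 group were 13 of 27 receptor genes and 11 of 30 genes of the FGF and EGF families.

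The genes whose profile was most like that of each member were sought by root mean square difference over the 6 arrays. Log2 values were first centred on each gene's mean. The pool was 9987 protein-coding genes above background in at least 1 group, out of 17405 genes of any kind above it. Symbols ending in P and a number were left out, a filter for pseudogenes that also took out DUSP4, DUSP5 and DUSP6. FAM and KIAA symbols were left out as well. JUN, a subunit of AP-1, lay closest to SPRY4, at 0.11 log2 units. Its intensities were 1165, 2155 and 1545 on the CX-4945 arrays and 79.9, 109.1 and 97.5 on the DMSO arrays, so that it too was highest on treated replicate 2. CITED2, a transcriptional coregulator, followed at 0.22. Closest to SPRED2 were USE1, which acts in vesicle traffic, and PPP1R15A, a stress-induced regulator of eIF2 phosphorylation, at 0.09 and 0.10. Closest to SPRED3 were NFIL3 and LONRF3, at 0.16 and 0.18. TLE3, a transcriptional corepressor, and NT5E, which makes adenosine from AMP, lay closest to SPRY2, both at 0.22. TLE3 has several rows, whose mean gave a log2 difference of 1.24 in place of 2.66. Closest to SPRY3 were TBC1D19 and RADX, at 0.03 and 0.05, and all 3 of these genes were lowest on CX-4945 replicate 2. Closest to SPRED1 were SLC35G2 and UMAD1, both at 0.06, and all 3 of these were lowest on DMSO replicate 3. With 6 arrays in 2 groups, likeness of this kind is mostly set by the size of the difference between the groups.

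**Figure D4:**
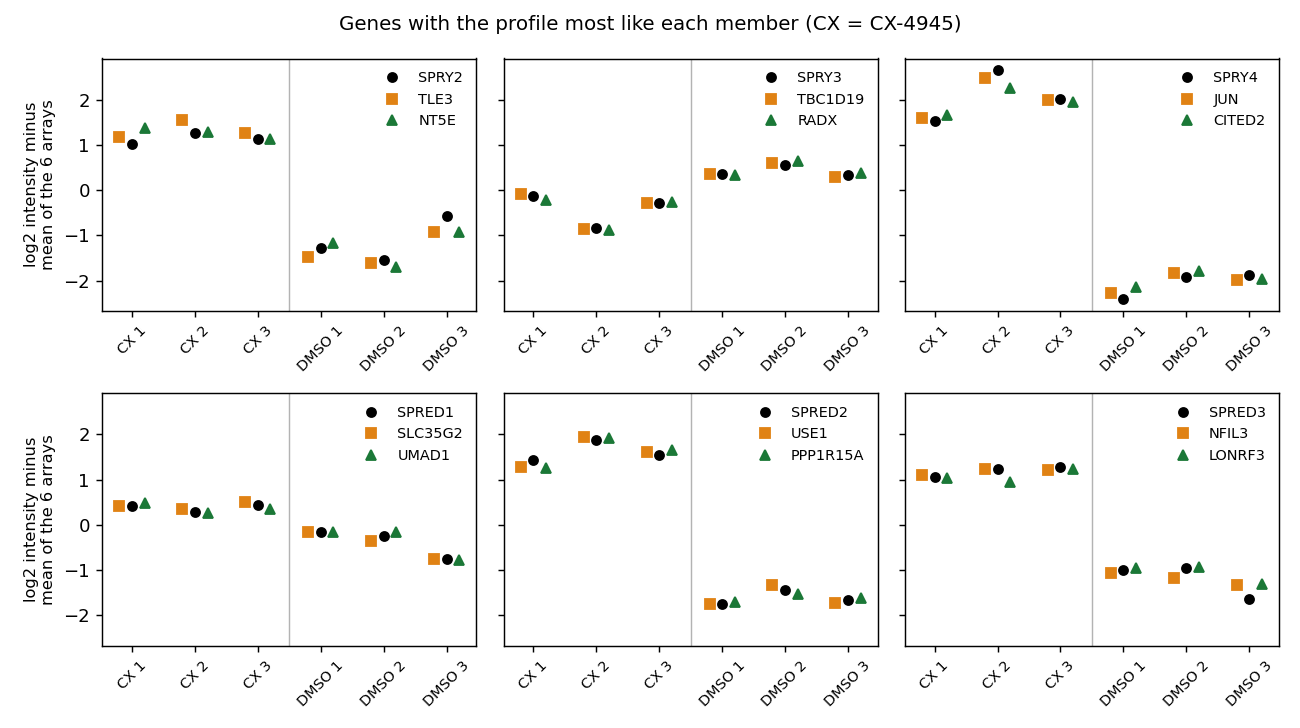
Log2 intensity on each of the 6 arrays, with the mean of the 6 arrays taken off, for 6 members (black circles) and the pair of genes most like each (orange squares and green triangles); CX-4945 arrays stand left of the vertical line and DMSO arrays right of it. SPRY4 and JUN are both highest on CX-4945 replicate 2, and SPRY3 is lowest there together with TBC1D19 and RADX.

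Median intensities over the 135750 rows of an array were 45.8 to 46.5 with CX-4945 and 40.7 to 43.1 with DMSO. Of 9 measured markers of the adrenal cortex, 7 were above background in each group, while INHA and MC2R were below it. Their summed intensity was 20066 to 28524 on CX-4945 arrays and 86324 to 93726 on DMSO arrays. Called lower were CYP11A1, CYP17A1, HSD3B2, NR5A1 and STAR, 5 genes of steroid synthesis and its control, CYP21A2 was called higher and FDX1 was not called. Of 5 chromaffin cell markers, CHGB was above background, and the sums were 428 to 484 on CX-4945 arrays and 991 to 1335 on DMSO arrays. Of 6 endothelial markers, VWF was above background, with sums of 207 to 241 and 198 to 256 (CX-4945 and DMSO). Of 5 fibroblast markers, COL1A1, COL1A2 and DCN were above it, with sums of 1759 to 3498 and 2262 to 3390.3 (CX-4945 and DMSO), and DCN was called higher, 1.75-fold (limma adjusted p = 0.00879). Of 5 immune markers, CD3E was above it, with sums of 246 to 345 and 262 to 312 (CX-4945 and DMSO), and CD68 was called higher (limma adjusted p = 0.0336) with both means below background. The part of the lower adrenocortical and chromaffin markers and of the higher DCN and CD68 in the Sprouty and Spred differences was not tested.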

How the data were processed

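RNA of 6 H295R samples was made into biotin-labelled target for whole-transcript arrays, per the labels' protocols. The authors processed the arrays with Affymetrix Expression Console, per the submitters' processing notes; version, normalization and build: not given in the sources used here. Values as deposited are intensities on a linear scale and were taken as already normalized. Over all rows, array medians lay close together within a group. They were higher with CX-4945 (45.8 to 46.5) than with DMSO (40.7 to 43.1), and the main fit left this offset in place. Groups and replicate numbers came from the sample titles.

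Deposited intensities were put on the log2 scale without a pseudocount. The platform table names 36176 of 135750 rows with 1 symbol, 1119 with several and leaves 98455 unnamed here. Of 1576 genes with several rows the brightest row was kept, which gave 33616 genes with no filter on dim ones. Identifiers of 25516 named rows were found in RefSeq (GRCh38.p14), those of all 7 members among them. Groups were compared in R 4.3.3 with limma 3.58.1 (lmFit, eBayes with an intensity trend, two-sided, Benjamini-Hochberg over all genes, threshold 0.05), with 4 residual degrees of freedom. The code was tested on simulated data. Differences are CX-4945 minus DMSO. The background level is the 95th percentile of 400 olfactory receptor genes.

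The members, gene lists, motifs, background level and tests were chosen with earlier results of these data known. Named were all members, the 4 called genes of each list with the largest absolute log2 difference, and the nearest genes in the annotation. NF1, CBL, GRB2, HBEGF and FGF9 were added after their values were seen. Also named were the 2 genes most like each member, among protein-coding genes above background that passed a filter on symbols. The alternatives changed the normalization (quantile, or medians made equal), the variance model (trend, moderation, array weights), the filter on dim genes (3 levels), the choice of rows (their mean, or every row), the replicate block and the arrays (each left out once). Precision is limited by the number of arrays; over genes, the median SD was 0.23 in CX-4945 and 0.18 in DMSO on the log2 scale. No 2 arrays had more than 15 equal values. Plots were drawn with matplotlib 3.10.9.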

Additional observations from a re-analysis of the deposited data

How the results depend on the processing

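All 7 genes were recomputed under up to 17 alternatives, and SPRY2, SPRY4, SPRED2 and SPRED3 were called higher in each that kept them. Their log2 differences ranged from 2.06 to 2.55, 3.83 to 4.40, 3.07 to 3.32 and 2.16 to 2.50, in that order. The filters at the median of gene means and at the olfactory receptor level removed SPRY1 and SPRED3. Without moderation of the variance, SPRY3 (-0.83; adjusted p = 0.104) and SPRED1 (0.76; 0.0892) lost their calls, and 4259 genes were called in place of 7665. With all rows tested, named or not, 13399 rows were called. Over the fits without 1 array each, SPRY3 ranged from -0.98 to -0.63 and SPRED1 from 0.58 to 0.88, and 5865 to 8921 genes were called. SPRY1 passed the test in no alternative (-0.29 to 0.10). The median of all genes was -0.09 with quantile normalization and -0.11 with equal medians, in place of 0.02, with 2624 higher and 5271 lower, and 2539 higher and 5291 lower, in place of 3469 and 4196. SPRED1 was then 0.64 and 0.63 and SPRY3 -0.93 and -0.97, all still called.

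With the replicate number as a block, 6 members were called and 8058 genes, and 58 pathway genes in place of 57. Deviations of same-numbered arrays correlated at 0.09, 0.09 and -0.04, so the numbers were not taken as pairs. Of the 33 listed genes named for the largest differences, 25 kept their call in every alternative that tested them. HBEGF and FGF9 are not among the 33. The targets of ERK signalling called higher numbered 8 without moderation and 10 to 14 otherwise. The intensities near the olfactory receptor level give only bounds.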
